A study of Mus musculus with 6 samples.

Results

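The MEIS, PBX and PREP genes encode TALE homeodomain proteins, and 8 of them were followed here among the 22180 genes that the arrays name: Meis1, Meis2, Meis3, Pbx2, Pbx3, Pbx4, Pknox1 and Pknox2. They were taken as the probe sets whose single gene symbol is one of these names, and each gene had 1 probe set. The family was singled out because Meis1 and Meis2 were much higher at day 4 than at day 0 in control cells, so the values of that comparison are a description without a test. Total RNA came from mouse embryonic stem cells infected with a lentivirus that carried a control short hairpin RNA (shRNA), an shRNA against Chd4 or an shRNA against Mbd3. Day 0 cells grew on gelatin in medium with serum and leukemia inhibitory factor, and day 4 cells had been reaggregated for 4 days in a differentiation medium with knockout serum replacement. These 3 lines at 2 days make 6 groups, each with 1 Mouse Gene 2.0 ST array, so a difference between 2 arrays has no replicate check. All groups share the lentiviral infection, and the sources used here do not say how many independent cultures stand behind an array.

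TALE proteins carry an extended loop of a few residues in their homeodomain. PBX proteins bind DNA together with HOX proteins, and MEIS and PREP proteins bind the N-terminal part of PBX, keep it in the nucleus and add a contact with DNA of their own. MEIS and PREP proteins compete for the same surface of PBX. In the embryo these complexes pattern the hindbrain, the limbs and other structures along the body axis, and Meis genes are known to respond to retinoic acid.

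The array medians over all probe sets lay between 39.6 and 41.4, on a linear intensity scale. An intensity under 41.4, the highest of these medians, is dim, and a difference against such a value is given as "at least", computed with 41.4 in its place. The probe set of Chd4 stood at 29.8% of control in the Chd4 line at day 0 and at 71.3% at day 4, and that of Mbd3 at 43.0% and 75.5% in the Mbd3 line. Stem cell and neural markers differed between the days. The 10 early neural progenitor markers summed to an intensity of 837 in control at day 0 and 6672 at day 4, against 664 and 1043 in the Chd4 line and 643 and 1533 in the Mbd3 line. The sum of 10 stem cell markers was 10343 at day 0 and 2681 at day 4 in control, 10712 and 6394 in the Chd4 line and 9727 and 5476 in the Mbd3 line. In these bulk samples a larger share of cells that express a gene and more RNA per cell cannot be told apart.

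Meis1 encodes a HOX and PBX partner known from blood stem cells and the eye. Its intensity was 44.4 in control cells at day 0 and 848 at day 4. In the Chd4 line it was 35.7 at day 0 and 63.7 at day 4, and in the Mbd3 line 39.1 and 94.9. The day 4 control array thus stood far above the other 5, and the lowest values were those of both knockdown lines at day 0, which were dim. On the log2 scale the day difference was 4.25 in control, at least 0.62 in the Chd4 line and at least 1.20 in the Mbd3 line. With 16 subtracted from every intensity, a constant that may have been added before deposit, the control difference of Meis1 was 4.87.

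Meis2, a close relative expressed in the developing brain and cranial mesenchyme, had the same order of arrays in its upper part. Its intensity was 53.9 in control cells at day 0 and 1145 at day 4. It was 40.5 and 139 in the Chd4 line and 39.9 and 190 in the Mbd3 line. Day 4 was therefore higher than day 0 in each of the 3 lines, with a log2 difference of 4.41 in control, at least 1.74 in the Chd4 line and at least 2.20 in the Mbd3 line. The Mbd3 value was 2.86 with 16 subtracted, against 2.25 for the intensities as deposited. Over all genes compared in control cells, Meis2 had the 3rd highest and Meis1 the 8th highest day difference.

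Meis3, which acts in hindbrain patterning, passed 2-fold between the days in control and in neither knockdown line. Its intensity was 63.4 at day 0 and 202 at day 4 in control, a log2 difference of 1.67. The Chd4 line had 77.8 at day 0 and 74.9 at day 4, a difference of -0.05, and the Mbd3 line 72.5 and 88.8, a difference of 0.29. At day 0 both knockdown lines were above control, and at day 4 both were below it.

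**Figure D1:**
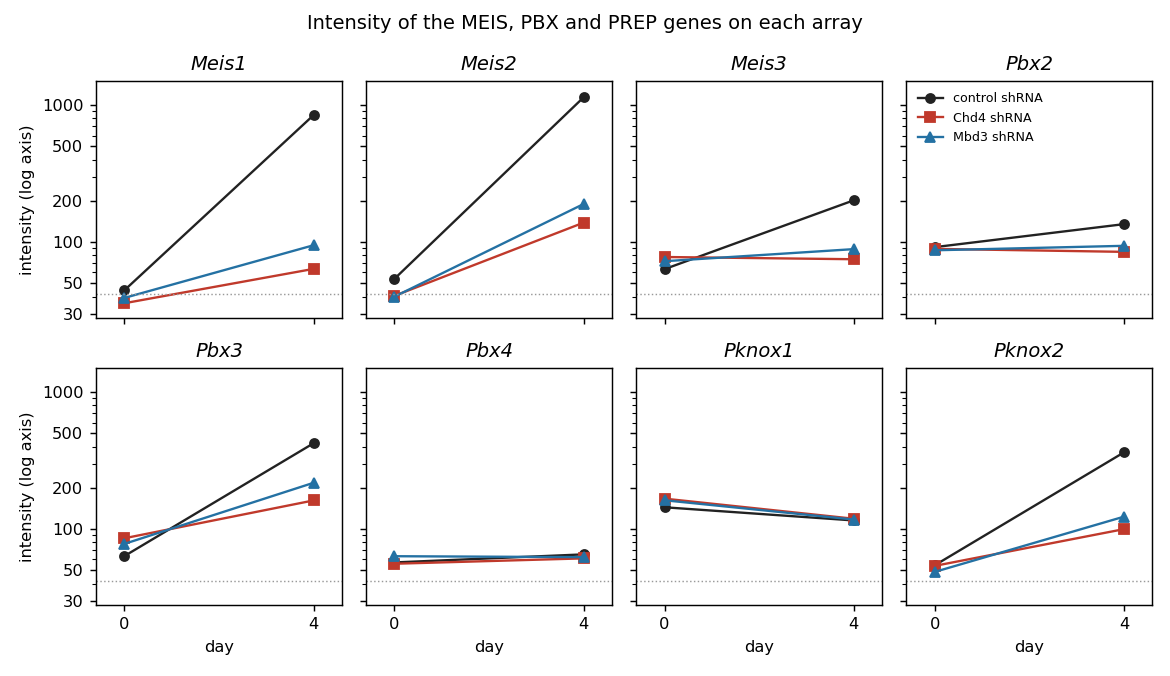
Intensity of the 8 genes (vertical log axis, arbitrary units) at day 0 and day 4 (horizontal axis), 1 array per point, with lines joining the 2 arrays of a line and the dotted line at 41.4, the highest array median. Meis1, Meis2, Pbx3 and Pknox2 are higher at day 4 in all 3 lines, with the widest gap in control, while Pbx4 stays between 55.8 and 65.4 on all arrays.

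Meis1 and Meis2 had like profiles over the arrays, so the DNA upstream of a RefSeq start of each is shown, 250 bases long on the gene's strand. RefSeq's promoter table (GRCm38.p6) held 5 of the 8 genes: Meis1, Meis2, Meis3, Pbx2 and Pbx4. Capitals mark CG dinucleotides, the sites of DNA methylation in mammals. The Meis1 window lies at chr11:19018970-19019219 and the Meis2 window at chr2:116064620-116064869, both on the minus strand.
Meis1: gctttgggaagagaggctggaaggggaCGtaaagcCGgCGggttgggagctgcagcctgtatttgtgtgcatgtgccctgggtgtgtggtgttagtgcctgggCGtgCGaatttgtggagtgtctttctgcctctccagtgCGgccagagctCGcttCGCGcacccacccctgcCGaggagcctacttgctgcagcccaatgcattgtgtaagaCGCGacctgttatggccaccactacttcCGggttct
Meis2: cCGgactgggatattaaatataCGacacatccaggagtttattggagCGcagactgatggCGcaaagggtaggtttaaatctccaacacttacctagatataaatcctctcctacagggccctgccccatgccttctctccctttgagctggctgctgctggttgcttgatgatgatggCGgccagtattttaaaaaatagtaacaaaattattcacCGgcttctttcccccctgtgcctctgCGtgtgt
The Meis1 window held 13 CG dinucleotides and the Meis2 window 7, against a median of 6 over 32851 windows of this length. Meis3 and Pbx4 had 12 each and Pbx2 had 27. Both strands were searched for TGACAG, the core bound by MEIS and PREP proteins, and for TGATNNAT, a composite bound by PBX with HOX. Neither motif occurred in the 5 windows, while 15.9% and 7.68% of all windows held them. The TATA box core TATAAA, searched on the gene's strand only, occurred in the Meis2 window and in 7.59% of all windows. No motif is a part of another, and a match or its absence describes these letters only.

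Among the PBX genes, Pbx3, which is needed for the respiratory rhythm centers of the hindbrain, differed most between the days. Its intensity was 63.5 in control at day 0 and 424 at day 4. It was 85.7 and 162 in the Chd4 line and 78.0 and 218 in the Mbd3 line. The log2 day differences were 2.74 in control, 0.92 in the Chd4 line and 1.48 in the Mbd3 line. All 3 day 4 arrays lay above all 3 day 0 arrays, and at day 0 control was the lowest line.

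Pbx2, a broadly expressed member, had small differences. Its intensity was 91.8 and 135 in control, 89.2 and 84.8 in the Chd4 line and 87.1 and 93.9 in the Mbd3 line, at day 0 and day 4. The control array at day 4 was the highest, and the other 5 lay between 84.8 and 93.9. Pbx4, known from testis, ranged from 55.8 to 65.4 over the 6 arrays, with log2 day differences of 0.20 in control, 0.13 in the Chd4 line and -0.02 in the Mbd3 line.

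The PREP genes differed in opposite directions between the days. Pknox1 encodes PREP1, a widely expressed PBX partner, and its intensity was 144 in control at day 0 and 116 at day 4. It was 167 and 119 in the Chd4 line and 162 and 117 in the Mbd3 line. Day 4 was lower in each line, by log2 differences of -0.32, -0.49 and -0.47, and the 3 day 4 arrays lay within 116 to 119. Pknox1 was the only member lower at day 4 in all 3 lines.

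Pknox2 encodes PREP2, a paralog with narrower expression that includes the nervous system. Its intensity was 54.4 at day 0 and 364 at day 4 in control. It was 53.8 and 99.96 in the Chd4 line and 48.7 and 123 in the Mbd3 line. The log2 day differences were 2.74 in control, 0.89 in the Chd4 line and 1.34 in the Mbd3 line. Across the 6 arrays Pknox2 followed Meis2 with a Pearson correlation of 0.998 on the log2 scale, the highest among the 28 pairs of members and the highest of any gene with Meis2. That is a description of 6 arrays that share their day and line, with a smaller amplitude in Pknox2.

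Between the days in control cells 5 of the 8 members (Meis1, Meis2, Meis3, Pbx3 and Pknox2) passed 2-fold upward, where 8.13% of the 13830 genes compared did, and nothing is read from that count because the family was chosen on this comparison. In the Chd4 line 1 of 8, Meis2, was at least 2-fold higher, against 1.7% of genes. With 16 subtracted, 4 of 8 were: Meis2 at 2.33, Meis1 at 1.27, Pknox2 at 1.15 and Pbx3 at 1.07 on the log2 scale. More genes of any kind also passed then, 643 in place of 383 in either direction, and their upward share was not computed. In the Mbd3 line 4 of 8 were at least 2-fold higher as deposited (Meis1, Meis2, Pbx3 and Pknox2), against 1.6% of genes. The median log2 day difference of the 8 members was 2.21 in control, 0.48 in the Chd4 line and 0.79 in the Mbd3 line, beside medians over all genes compared of 0.0027, -0.01 and -0.03.

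**Figure D2:**
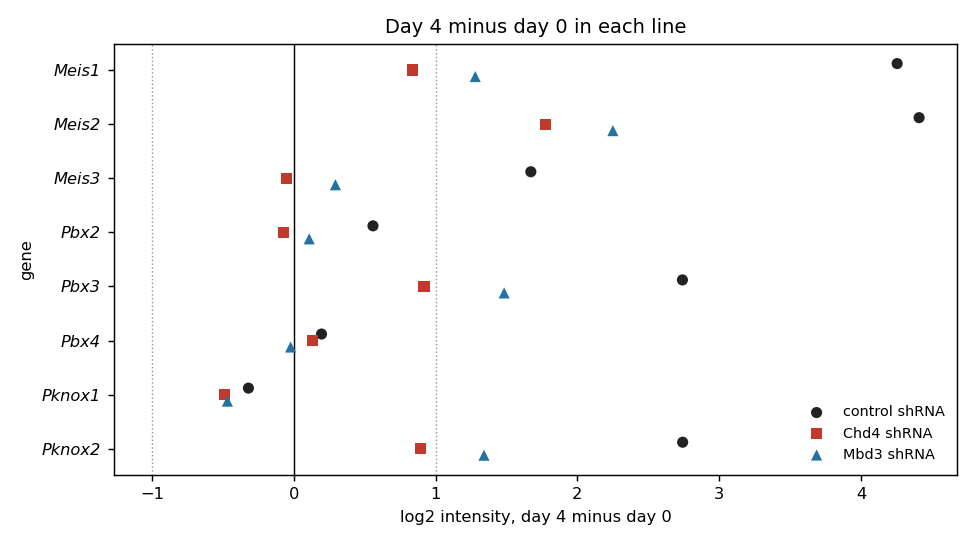
Log2 intensity at day 4 minus day 0 (horizontal axis) for each gene (vertical axis) in the 3 lines, 1 difference of 2 arrays per point, with dotted lines at 2-fold. For Meis1, Meis2, Meis3, Pbx3 and Pknox2 the order is Chd4, Mbd3, control from left to right, and the Pknox1 points all lie below 0.

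The family was singled out on the control arrays, so the day effect was tested in the knockdown arrays. Earlier results of these data were known when the members were chosen, so the test is not shown to be independent of that choice. The filter that left 13037 genes took its mean over all arrays, the control pair included. The set of genes tested was therefore not independent of the control arrays. limma was fitted to the 4 knockdown arrays, with line as a term and the 2 lines standing in for replicates, and p-values were adjusted by Benjamini-Hochberg over 13037 genes. Meis2 rose by 2.01 on the log2 scale (SE 0.16, limma adjusted p = 0.0021) and Pbx3 by 1.20 (SE 0.17, limma adjusted p = 0.0099). Pknox2 rose by 1.12 (SE 0.16, limma adjusted p = 0.0099) and Meis1 by 1.06 (SE 0.16, limma adjusted p = 0.012). These 4 of 8 members passed in the upward direction, against 2.96% of all genes tested, and all were higher at day 4 in both lines. The difference for Pknox1 was -0.48 (SE 0.14, limma adjusted p = 0.098), which did not pass. Meis3 at 0.12, Pbx4 at 0.05 and Pbx2 at 0.02 did not pass either, with adjusted p-values from limma of 0.75 to 0.97.

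In the same contrast 4 of 10 early neural progenitor markers rose and 5 of 10 stem cell markers fell by limma. Of all 13037 genes tested, 386 rose and 285 fell. The part of these markers in the result was not tested. The fit has 1 residual degree of freedom and takes different knockdowns as replicates. Each SE therefore leans on the spread of all genes tested, which limma pools with the gene's own. On simulated data the fit made a larger share of false calls than its threshold allows, so these adjusted p-values may be too small. The calls were lost under 3 of 5 alternatives. At day 0 Meis1 and Meis2 were dim in both knockdown lines, and the fit used these intensities as they stand. With dim intensities set to 41.4, an alternative chosen after seeing the data, limma called 0 of 13037 genes, with 2241 at an unadjusted p under 0.05. The differences were then 1.97 for Meis2, 1.20 for Pbx3, 1.12 for Pknox2 and 0.91 for Meis1, with limma adjusted p-values of 0.10 to 0.15. Without the filter on dim genes limma called 0 of 22180 genes, with 3232 at an unadjusted p under 0.05, and adjusted p-values of the 4 genes lay between 0.15 and 0.17. With the control pair added, in an additive model of shRNA and day over 6 arrays, limma called 0 of 13037 genes between the days, with 1978 at an unadjusted p under 0.05, and the 4 genes had adjusted p-values of 0.19 to 0.29.

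Against control at day 0, 0 of 8 members were 2-fold apart in either knockdown, where 1.26% of genes were in the Chd4 and 0.68% in the Mbd3 comparison. Pbx3 stood highest, at 0.43 in the Chd4 line and 0.30 in the Mbd3 line on the log2 scale. Meis2 stood lowest, at -0.41 and -0.43, or -0.38 in each line with dim values set to 41.4. Meis1 was at -0.31 and -0.18, and at -0.10 in each with that floor. Meis3 was higher in both, at 0.29 and 0.19, and so was Pknox1, at 0.21 and 0.17.

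At day 4 the knockdown lines were compared with control, to see how far the family reached the level of differentiated control cells. Meis1 was 13.3-fold lower in the Chd4 line and 8.93-fold lower in the Mbd3 line, which left it at 7.52% and 11.2% of control. Meis2 was at 12.1% and 16.6% of control and Pknox2 at 27.5% and 33.9%. Meis3 was at 37.1% and 44.0%, Pbx3 at 38.2% and 51.4% and Pbx2 at 62.7% and 69.4%. Pbx4 and Pknox1 differed least, with Pbx4 at 93.5% and 95.5% and Pknox1 at 103% and 102% of control. Both comparisons share the control array at day 4, which also entered the choice of the family.

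In the Chd4 line 5 of 8 members were at least 2-fold lower than control at day 4 (Meis1, Meis2, Meis3, Pbx3 and Pknox2), against 6.65% of genes. In the Mbd3 line 4 of 8 were, against 4.9% of genes, and Pbx3 stopped short of 2-fold at -0.96. With each array centred on its median Pbx3 stood at -1.01, which makes 5 of 8, and the Pknox1 difference of 0.02 turned to -0.02. The member medians were -1.41 and -1.07, beside -0.04 and -0.06 over all genes compared. Nothing is read from these counts and medians, because the control array at day 4 entered the choice of the family. Early neural progenitor markers moved with the members. Of these markers, 9 of 10 were past 2-fold below control in each knockdown at day 4, with list medians of -2.65 and -2.26. All 10 stem cell markers were above control in each, 5 of them past 2-fold in the Chd4 line and 4 in the Mbd3 line. Past 2-fold in either direction were 1610 of 13734 genes compared in the Chd4 line and 1134 of 13588 in the Mbd3 line. The part of either list in the result was not tested.

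**Figure D3:**
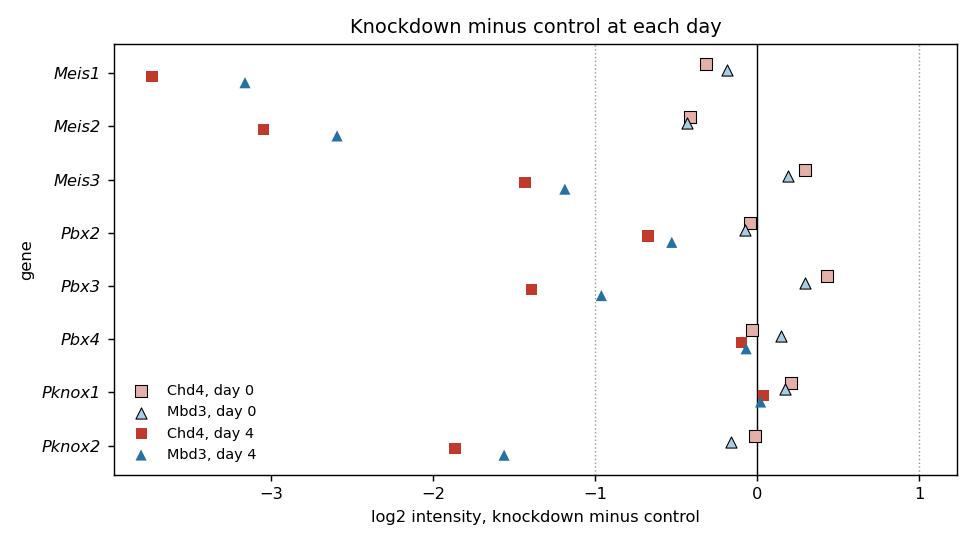
Log2 intensity of each knockdown minus control (horizontal axis) for each gene (vertical axis), with pale outlined symbols for day 0 and filled symbols for day 4, 1 difference of 2 arrays per point and dotted lines at 2-fold. Day 0 points lie between -0.43 and 0.43, and day 4 points reach -3.73 for Meis1 while Pbx4 and Pknox1 stay near 0.

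The 2 knockdown lines were also set against each other. At day 0 Meis1 and Meis2 were under the median of both arrays and were not compared, and 0 of the other 6 members were 2-fold apart, against 1.05% of genes, with differences of -0.18 to 0.15 on the log2 scale. At day 4 none of the 8 was, against 1.1% of genes. There 7 of 8 members were lower in the Chd4 line than in the Mbd3 line, with Meis1 at -0.57, Meis2 at -0.45, Pbx3 at -0.43, Pknox2 at -0.30 and Meis3 at -0.25. With 1 array per group these small differences were not tested.

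Over both days together, the additive limma model called 0 of 13037 genes for either knockdown (0% called), with 1023 genes at an unadjusted p under 0.05 for Chd4 and 650 for Mbd3. None of the 8 members passed, and none had an unadjusted p under 0.05 in these 2 contrasts. The Chd4 contrast was -2.02 for Meis1 (SE 0.87, limma adjusted p = 0.61) and -1.73 for Meis2 (SE 0.66, limma adjusted p = 0.61). For Mbd3 they were -1.67 (SE 0.87) and -1.51 (SE 0.66), each with a limma adjusted p = 0.84. In this model a knockdown contrast is the mean of its day 0 and day 4 differences, and how far each day departs from that mean counts as error. A difference that is present at day 4 and small at day 0 thus enters both. Both contrasts also use the control arrays, which entered the choice of the family.

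Genes that work with this family were followed by lists. Of 9 other TALE genes, the TGIF, IRX and MKX genes, 2 passed 2-fold upward between the days in control and 0 did in either knockdown line. These were Irx3 and Irx5, which pattern the neural tube. Among all genes compared, 8.13% passed upward in control, 1.7% in the Chd4 line and 1.6% in the Mbd3 line. Irx3 had an intensity of 54.7 at day 0 and 532 at day 4 in control, against 64.0 and 65.8 in the Chd4 line and 49.0 and 92.9 in the Mbd3 line. The list medians of the log2 day difference were 0.36 in control, 0.04 in the Chd4 line and 0.13 in the Mbd3 line. At day 4 Irx3 was 8.08-fold and 5.72-fold below control in the Chd4 and Mbd3 lines, and Irx5 2.83-fold and 2.92-fold.

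HOX proteins of paralog groups 1 to 5 are the DNA-binding partners of PBX and MEIS in the hindbrain and neck region. Of 13 such genes measured, 4 passed 2-fold upward between the days in control, 0 in the Chd4 line and 1 in the Mbd3 line. Over all genes compared, these shares were 8.13%, 1.7% and 1.6%. Hoxb1, a gene of hindbrain rhombomere 4 in the embryo, had an intensity of 53.9 and 530 in control, 66.1 and 93.6 in the Chd4 line and 45.9 and 158 in the Mbd3 line. Its day effect in the knockdown lines was 1.14 (SE 0.27, limma adjusted p = 0.054) and did not pass. At day 4, 5 of the 13 were at least 2-fold lower than control in each knockdown: Hoxb2, Hoxa2, Hoxb1, Hoxb3 and Hoxa4. Over all genes compared, 6.65% were in the Chd4 line and 4.9% in the Mbd3 line. Hoxb2 was at least 12.3-fold below control in the Chd4 line and 10.9-fold in the Mbd3 line, and Hoxa2 at least 9.52-fold and 7.35-fold. Of the 13 genes, 6 were dim on all arrays, and the list median was -0.44 and -0.47, or -0.02 and 0 with dim values set to 41.4.

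Of 17 retinoic acid pathway genes, 5 passed 2-fold upward and 1 downward between the days in control. Upward, 1 did in the Chd4 line and 4 in the Mbd3 line, or 3 with dim values set to 41.4. Over all genes compared, the upward shares were 8.13% in control, 1.7% in the Chd4 line and 1.6% in the Mbd3 line. In either direction, 1775 of the 13830 genes compared passed 2-fold in control. The binding proteins Crabp1 and Crabp2 and the degrading enzyme Cyp26c1 were 10.3-fold, 6.68-fold and at least 4.57-fold below control at day 4 in the Chd4 line. In the Mbd3 line they were 5.44-fold, 7.35-fold and 3.54-fold below it, and Cyp26b1, another degrading enzyme, was 2.01-fold below. The retinoic acid receptor gene Rarg was 2.01-fold above control in the Chd4 line at day 4 and 1.45-fold in the Mbd3 line. Its intensity was 217 and 67.3 in control, 135 and 135 in the Chd4 line and 113 and 97.7 in the Mbd3 line, at day 0 and day 4. By limma none of the 13 tested genes of this list fell between the days in the knockdown lines. Against 2.96% of all genes tested, 3 of the 13 rose. They were Stra6, a retinol receptor, by 1.13 (SE 0.14, limma adjusted p = 0.0069), Crabp2 by 0.93 (SE 0.16, limma adjusted p = 0.020) and Dhrs3, which turns retinal to retinol, by 0.91 (SE 0.15, limma adjusted p = 0.017). Stra6 and Dhrs3 are named after their values were seen. The Stra6 day difference was 1.15 in control, 1.24 in the Chd4 line and 1.02 in the Mbd3 line, whereas that of Dhrs3 was 0.06 in control. As for the members, limma called no gene under the 3 alternatives named there.

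Over all genes compared, 6.65% in the Chd4 line and 4.9% in the Mbd3 line were at least 2-fold lower than control at day 4. Of 14 other partners and regulators measured, 4 were at least 2-fold lower than control at day 4 in each knockdown. These were the homeobox gene Zfhx4, at -3.78 and -3.40, Pax6, at -2.59 and -2.61, Pax3, at -2.28 and -1.53, and the pseudokinase gene Trib2, a MEIS1 target in leukemia, at -1.99 and -1.49. PAX6 and PAX3 are factors of the neural tube, and MEIS proteins bind enhancers of Pax6 in the eye. Both this list and the early neural progenitor markers hold Pax6, so its difference is counted in each. Pax6 was near its day 0 level in both knockdown lines at day 4, with intensities of 63.5 and 62.5 after 58.5 and 67.2.

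**Figure D4:**
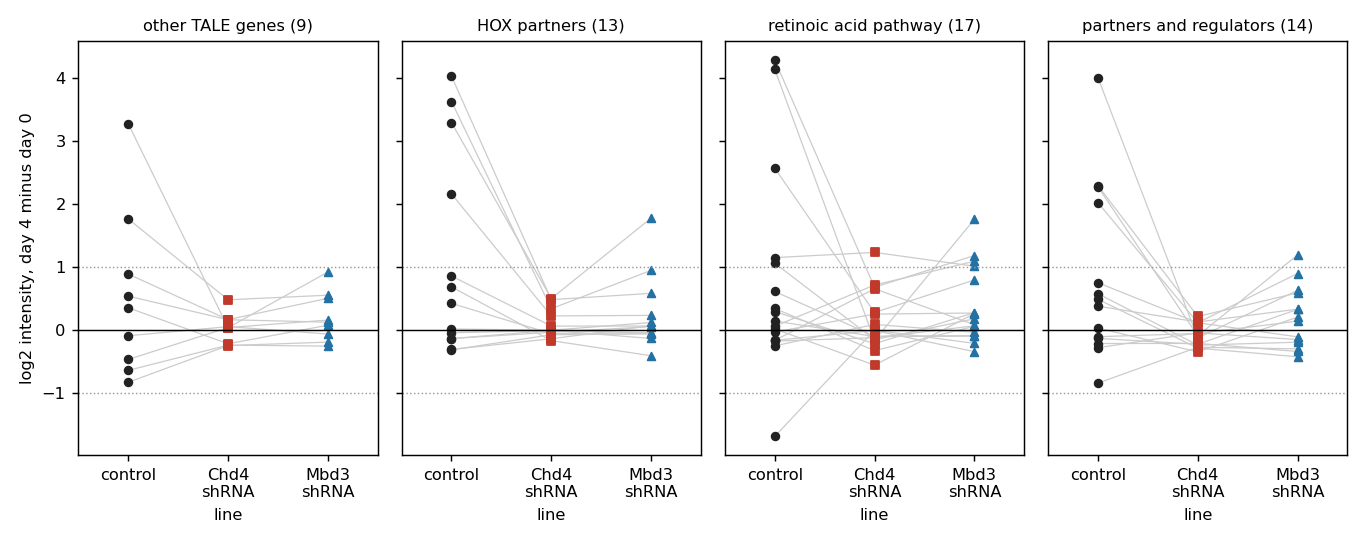
Log2 intensity at day 4 minus day 0 (vertical axis) of 4 gene lists in the 3 lines (horizontal axis), 1 gene per point, with grey lines joining a gene and dotted lines at 2-fold. The control column holds the widest spread, up to 4.29 for Crabp2, and the Chd4 column of the HOX list stays between -0.16 and 0.50.

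Markers of other cell types were checked because MEIS genes are also active in mesoderm and neural crest. The 8 mesoderm markers measured summed to intensities between 415 and 463 on the 6 arrays, with 2 dim on all of them, and 0 were 2-fold apart between the days in any line. The 5 neural crest markers summed to 249 to 359, and the 5 fibroblast markers to 266 to 375. Of the 359, in control at day 0, Foxd3 held 185, and it is named after its values were seen. The 5 trophectoderm markers summed to 258 to 559, lowest in control at day 4. The 6 endoderm markers summed to 303 to 380 on 5 arrays and to 1049 in control at day 4, of which Cxcr4, a chemokine receptor gene named after its values were seen, held 802. The 10 postmitotic neuron markers summed to 1386 to 3338, highest in control at day 4. Stmn2, also named after its values were seen, held 1517 of 2260 in control at day 0 and 1156 of 3338 at day 4. In control 8 of the 10 were past 2-fold above day 0 at day 4, against 0 of 10 in either knockdown line. Over all genes compared, the upward shares were 8.13% in control, 1.7% in the Chd4 line and 1.6% in the Mbd3 line. The part of these markers in the values of the TALE genes was not tested.

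Genes with a pattern most like Meis1 and Meis2 were found by the root mean square difference between log2 profiles, each centred on its own mean over the 6 arrays. For Meis1 they were Ednrb, an endothelin receptor gene, at 0.15, Ndnf at 0.18, Lrrn1 and Ildr2 at 0.19 and the integrin gene Itgb8 at 0.23. For Meis2 they were the growth factor gene Ptn at 0.25, Lrrn1 at 0.29, the fatty-acid-binding protein gene Fabp7 at 0.29, the activin antagonist gene Fst at 0.34 and Igdcc3 at 0.37. Meis1 and Meis2 differed from each other by 0.41. Lrrn1 was the gene in both sets. Ranked by Pearson correlation, 1 of the 5 genes of Meis1 and 0 of the 5 of Meis2 stayed among the 5 nearest.

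**Figure D5:**
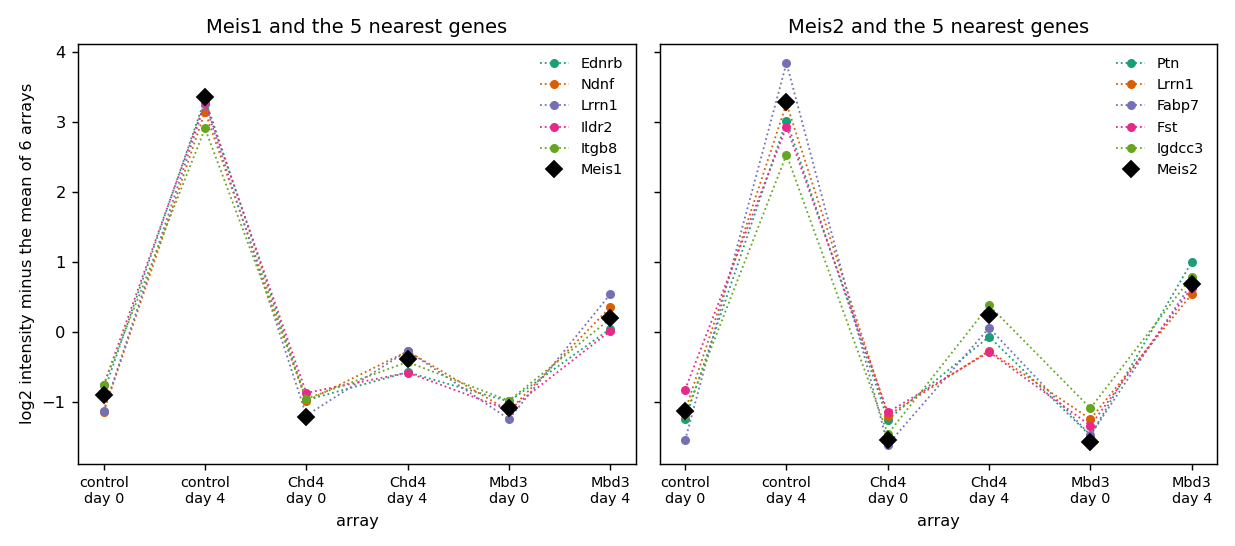
Log2 intensity minus the mean of the 6 arrays (vertical axis) on each array (horizontal axis) for Meis1 (left) and Meis2 (right) as black diamonds, with the 5 nearest genes as coloured points; dotted lines only join points of a gene. Every gene shown peaks on the control array at day 4, and the Mbd3 array at day 4 comes next in both panels.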

How the data were processed

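Total RNA of 6 groups was hybridized to Mouse Gene 2.0 ST arrays. The authors analysed them in GeneSpring GX 12.6.1, per the series design text, and the submitters' processing notes name RMA, with no version. The authors deposited linear intensities, from 17.4 to 7980. The lowest values lie just above 16, so subtracting 16, a constant that may have been added, was an alternative.

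Log2 was taken with no scaling. Of 34351 probe sets 23521 carried 1 gene symbol, and symbols were updated through RefSeq (GRCm38.p6). Where a gene had several probe sets, the brightest on average stood for it. A pair of arrays was compared over genes whose brighter array reached its median. limma 3.58.1 (R 4.3.3) called genes at an adjusted p under 0.05. It tested the 13037 genes whose mean log2 over all arrays, control included, reached the median of all probe sets. On simulated data with equal large changes, independent noise and no difference between lines, it found nearly all changed genes. The fit of knockdown lines made a larger share of false calls there than the threshold allows. Changes as small as those of Meis1, Pbx3 and Pknox2 in the knockdown lines were not simulated. Other steps used Python 3.11.15, numpy 2.4.6, pandas 2.3.3 and matplotlib 3.10.9.

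Members and lists were chosen with earlier results of these data known. All 8 members are named. Of each list only genes past 2-fold against control at day 4 are named, at most the 3 largest and 2 smallest, with exceptions stated, and the 5 nearest profiles. Of the listed HOX, retinoic acid and partner genes, 4 were not analysed here. No group has a replicate array, so a gene's own spread in limma is how far its day difference varies between lines. limma draws that spread toward a value estimated from all genes tested, and the p-values rest on both. Technical and biological parts of that spread cannot be told apart, and the spread within a group was not measured.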

Additional observations from a re-analysis of the deposited data

Results flagged for a closer look

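With 1 array per group these differences between lines or days were not tested, and their values are log2 day differences of a knockdown minus that of control. The day difference had opposite signs in 2 lines for Meis3 in the Chd4 line, with -1.73, for Pbx2 in the Chd4 line, with -0.63, and for Pbx4 in the Mbd3 line, with -0.22. The difference from control changed sign between the days for Pbx3, above control at day 0 and below it at day 4, with -1.82 in the Chd4 and -1.26 in the Mbd3 line. The same held for Meis3 in the Mbd3 line, with -1.38, and in the Chd4 line, with the -1.73 given above. Pbx4 in the Mbd3 line also changed sign against control, from 0.15 at day 0 to -0.07 at day 4. The Pbx4 value of -0.22 rests on log2 day differences of 0.20 and -0.02 and is small against the other 5 values. The opposite signs of Meis3 and Pbx2 rest on small day differences in the Chd4 line, of -0.05 and -0.07.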

How the results depend on the processing

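The numbers of members past 2-fold in the 9 pairs of arrays stayed within 1.5 times of the reported values when arrays were centred on their medians, when all probe sets of a gene were averaged and when dim intensities were set to 41.4. With 16 subtracted this held for 8 of the 9 pairs, and the count for the Chd4 line between the days was 4 in place of 1. No member called past 2-fold changed direction under these alternatives. Counts of all genes past 2-fold in either direction grew by over 1.5 times in 7 pairs with 16 subtracted. Between the days they were 643 in place of 383 in the Chd4 line and 643 in place of 362 in the Mbd3 line. Against control at day 0 they were 324 in place of 169 for Chd4 and 207 in place of 91 for Mbd3, and at day 4 1713 in place of 1134 for Mbd3. Between the knockdowns they were 295 in place of 140 at day 0 and 266 in place of 147 at day 4. In the knockdown lines limma called 671 genes and 4 members between the days. These became 0 genes and 0 members without the filter on dim genes, 0 and 0 with all 6 arrays in an additive model, and 0 and 0 with dim intensities set to 41.4, which was chosen after seeing the data; the cause was not tested. With 16 subtracted or an intensity trend, the counts of called genes and members stayed within 1.5 times. Of the 5 genes nearest to Meis1 and Meis2, 1 and 0 stayed under Pearson correlation. Each group holds 1 array, so no array could be left out of its group. The labels give no replicate numbers to block on, and both limma designs compare the days within lines. Dim signal limits Meis1 and Meis2 at day 0.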
